A study of Mus musculus with 4 samples.

Results

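Interferon-stimulated genes are the transcripts that cells induce when an interferon binds its receptor. In mouse intestinal organoids that were Tacc3 wt/wt or Tacc3 fl/fl, 35 such genes were followed on 4 Affymetrix arrays. The genes were taken from a list of symbols, and where a gene had several probe sets, the one with the highest mean log2(intensity + 16) over all arrays stood for it. Of the 35 genes, 33 had a probe set that the platform table assigns to 1 gene symbol, out of 18193 such genes in all. Isg15 was listed only on a probe set shared by several genes, Ifi44 was not listed, and neither was analysed. The median of all probe sets, at 5.04 on the log2(intensity + 16) scale or an intensity of 16.9 (a linear fluorescence value), separated 23 members above it from 10 below it. Among all genes, 11392 lay above.

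Interferons act outside the cell that makes them. Type I and type III interferons signal through JAK kinases to a complex that contains Stat2 and Irf9 and binds the interferon-stimulated response element (ISRE) in promoters, and type II interferon acts through the gamma-activated site (GAS). In intestinal epithelium the type III receptor is the main route by which absorptive cells respond to virus, and many of the induced products sense, cut or sequester viral RNA.

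Organoids are cultures of epithelium grown in Matrigel, and all 4 received 4OHT (4-hydroxytamoxifen, the drug used to activate recombination) for 24 hours. They were collected 4 or 6 days after treatment. The groups were Tacc3 wt/wt at day 4, Tacc3 fl/fl at day 4, Tacc3 wt/wt at day 6 and Tacc3 fl/fl at day 6, with 1 array each, so no difference has a replicate error or a test of its own. Wherever a pair of values is given for a day, the wt/wt array comes first, and wherever a pair of day differences (day 6 minus day 4, log2 scale) is given, wt/wt organoids come first. The design text says that both Apc and Tacc3 were recombined in organoids taken at either day, while the sample descriptions call day 4 organoids normal and day 6 organoids Apc-deficient. The Apc state is therefore not settled here, and the labels do not give the Cre driver, the number of animals or whether a culture is 1 clone.

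The arrays differed in technical measures that move with the day. Array medians lay between 15.4 and 17.7 and were highest in wt/wt organoids at day 4. The ratio of the 5' to the 3' control probe set for Actb was 0.0610 and 0.0627 at day 4 but 0.180 and 0.261 at day 6, and that of Gapdh was 0.142 to 0.208 against 0.411 to 0.524. Their part in any difference between the days was not tested. The brightest Tacc3 probe set read 184 and 59.8 at day 4 and 167 and 49.7 at day 6, lower in fl/fl organoids each time. All 10 epithelial markers lay above the median, among them Epcam at 901 to 4789. They moved with the day, with median day differences of 0.86 and 0.54. At day 6, 5 and 4 of the 10 were at least 2-fold higher, where 18.3% and 12.2% of all genes above the median were. In wt/wt organoids at day 4, 9 of 10 were lowest, as were 5139 of the 11392 genes above the median. Their part in the members' day differences was not tested. Of 15 measured immune markers 5 lay above the median (Cd3e, Cd8a, Csf1r, Cd14 and Lyz2), and the pan-leukocyte gene Ptprc read between 4.68 and 6.77. In whole organoids, fewer cells of a type and less RNA per cell cannot be told apart.

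Antiviral effectors lay on both sides of the median, and most members above it differed by less than 2-fold. In the antiviral effector group 7 of 13 genes lay below the median, where 6801 of all 18193 genes did, against 1 of 6 sensors, 0 of 4 transcription factors, 1 of 5 measured genes of the ISG15, ubiquitin and ADP-ribose group and 1 of 5 measured other induced genes. Of the 23 members above the median, 20 differed by less than 2-fold (1 on the log2 scale) in all 4 contrasts, as did 73.8% of all genes above it. The 3 exceptions were Oas1a, Zbp1 and Dtx3l, and each of them exceeded 2-fold between days, not between genotypes.

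**Figure D1:**
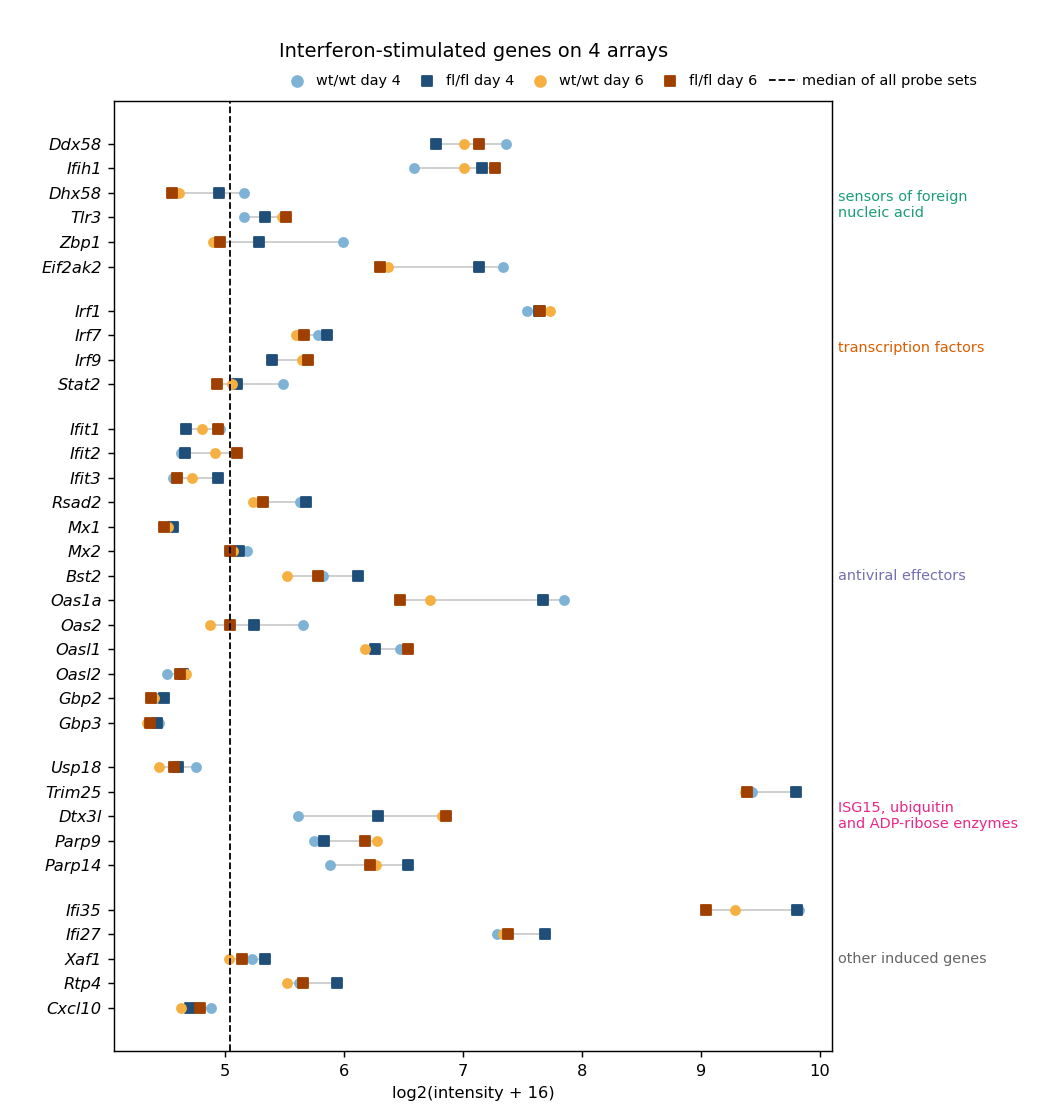
Level of the 33 measured members on each array, as log2(intensity + 16) on the horizontal axis, grouped by role. Circles are wt/wt and squares fl/fl organoids, light and dark blue day 4 and orange and brown day 6; each symbol is 1 array, and the dashed line is the median of all probe sets (5.04). Oas1a and Eif2ak2 show the blue day 4 symbols to the right of the day 6 ones, and Gbp2, Gbp3 and Mx1 stay left of the line on all arrays.

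The promoters of the members were set beside their levels, because the ISRE is the element that defines the response. The windows came from RefSeq on GRCm38.p6 and run from 250 bases before to 50 bases after a transcript start, and 25 of the 35 genes matched one by symbol. The core searched for was GAAANNGAAA on both strands, and overlapping matches were counted. It was present for 13 of the 25 genes (52.0%), against 3.99% of the 27025 genes and 3.44% of the 32851 windows searched. The search did not cover every chromosome. It was found for 7 of 16 members above the median and for 5 of 7 below it. Isg15, which has no usable probe set, had 3 overlapping matches between positions -78 and -57. The stretches below are those of the 6 members above the median with a match and the largest mean day difference, followed by Ifit1 and Ifit3, which were dim and were added after their values were seen. They read 5′ to 3′ on the strand of the gene, capitals mark the core, and only 30 bases are shown where the core lies past the start.
Oas1a (chr5:120907526-120907585, minus strand, positions -60 to -1): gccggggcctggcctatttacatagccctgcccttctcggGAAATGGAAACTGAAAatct
Eif2ak2 (chr17:78882535-78882564, minus strand, positions 9 to 38): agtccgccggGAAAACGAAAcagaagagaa
Rsad2 (chr12:26456539-26456598, minus strand, positions -146 to -87): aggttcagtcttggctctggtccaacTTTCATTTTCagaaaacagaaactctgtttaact
Bst2 (chr8:71537566-71537625, minus strand, positions -153 to -94): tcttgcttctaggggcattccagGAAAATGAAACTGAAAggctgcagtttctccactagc
Stat2 (chr10:128270250-128270309, plus strand, positions -248 to -189): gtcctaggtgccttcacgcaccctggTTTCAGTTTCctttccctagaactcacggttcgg
Ifih1 (chr2:62646206-62646235, minus strand, positions 21 to 50): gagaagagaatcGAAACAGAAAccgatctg
Ifit1 (chr19:34640769-34640828, plus strand, positions -120 to -61): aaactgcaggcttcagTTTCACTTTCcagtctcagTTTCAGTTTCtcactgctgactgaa
Ifit3 (chr19:34583364-34583423, plus strand, positions -165 to -106): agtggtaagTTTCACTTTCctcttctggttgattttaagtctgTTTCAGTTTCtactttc
In Oas1a and Bst2 a pair of cores overlaps, and in Ifit1 and Ifit3 a pair stands apart. The GAS core TTCNNNGAA, which is its own reverse complement, was in the windows of 6 of the 25 genes, against 9.55% of the genes searched. In Irf1 it read TTCCCCGAA at positions -90 to -82, and in Bst2 its match at -136 to -128 overlaps the first ISRE core. A match is a description of letters, and binding was not measured.

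The sensors of foreign nucleic acid differed among themselves. Ddx58 (RIG-I, a helicase that detects RNA with a 5' triphosphate) read 148 and 93.7 at day 4 and 113 and 124 at day 6. It was thus highest and lowest at day 4, and the day differences were -0.35 and 0.35. Ifih1 (MDA5, which detects long double-stranded RNA) read 80.5 and 127 at day 4 and 113 and 139 at day 6. Here fl/fl organoids were the higher at each day, by 0.57 and 0.27.

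Tlr3, the endosomal receptor for double-stranded RNA, read 19.9 and 24.5 at day 4 and 28.7 and 29.7 at day 6. These values lie close to the median of 16.9, and both day differences were small, at 0.32 and 0.17. Dhx58 (LGP2, a helicase that tunes the other helicase sensors) lay below the median on average, with 19.7 and 14.9 at day 4 and 8.44 and 7.59 at day 6.

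Zbp1, a sensor of Z-form nucleic acid that can start necroptosis, was 2-fold lower at day 6 in wt/wt organoids. It read 47.6 and 23.0 at day 4 and 13.9 and 15.2 at day 6. Only the wt/wt array at day 4 stood clear of the rest, so the day differences were -1.09 and -0.32, and fl/fl minus wt/wt at day 4 was -0.70. Its other probe set above the median went the same way, with -0.54 and -0.08. The wt/wt difference was short of 2-fold when each array was scaled to the same median (-0.98), averaged over its probe sets (-0.81) and with a pseudocount of 64 (-0.52). With a pseudocount of 1, Zbp1 was also 2-fold lower in the fl/fl array of day 4 (-1.02).

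Eif2ak2 (PKR, the kinase that halts translation when it binds double-stranded RNA) depended on the probe set. Its brightest probe set read 146 and 124 at day 4 and 66.8 and 62.8 at day 6. Both day 6 values were below both day 4 values, with differences of -0.96 and -0.83. The dimmest of its probe sets ran in the opposite direction: the day 4 arrays gave 8.08 and 10.6, the day 6 arrays 42.9 and 36.2, and the differences were 1.29 and 0.97. The remaining probe set gave 0.38 and -0.17. Averaged over its probe sets, the day differences were 0.24 and -0.01, so the array gives no single direction for this gene.

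Of the transcription factors, none differed 2-fold in any contrast. Irf1, a factor induced mainly by type II interferon and active in basal expression of many of these genes, read 170 and 184 at day 4 and 196 and 185 at day 6, a range of 0.19 over the 4 arrays on the log2 scale. Irf7, the factor that amplifies type I interferon production, read 39.1 and 41.9 at day 4 and 32.4 and 34.8 at day 6, and its day difference was -0.19 in each genotype. Irf1 was thus level on all arrays and Irf7 slightly lower at day 6.

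The partners of the ISRE-binding complex were dim. Irf9, its DNA-binding subunit, read 35 and 26.0 at day 4 and 34.3 and 36.1 at day 6, with the fl/fl array at day 4 the lowest. Stat2, its transactivating subunit, read 28.9 and 18.4 at day 4 and 17.4 and 14.7 at day 6. Its fl/fl minus wt/wt difference was -0.38 on day 4 and -0.12 on day 6, and the last 3 values are at the level of the median probe set.

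Among the antiviral effectors, the oligoadenylate synthetases make the messenger that activates RNase L, and they were unequal. Oas1a, whose promoter carries overlapping ISRE cores just before its start, read 215 and 188 at day 4 and 89.5 and 72.7 at day 6. Both day 6 values were below both day 4 values. The day differences were -1.13 and -1.20, and the genotypes differed by only -0.17 and -0.25. Oas1a was the only member 2-fold lower at day 6 in both genotypes, where 1.35% of all genes were. In wt/wt organoids the difference was -0.98 when each array was scaled to the same median, and with a pseudocount of 64 both differences fell short, at -0.86 and -0.88. Oas1a belongs to a cluster of close paralogs, so which of them its probe set reads is uncertain.

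Oas2 read 34.4 and 21.9 at day 4 and 13.4 and 17.0 at day 6. Like Zbp1, it was highest in wt/wt organoids at day 4, and its day difference was -0.78 in wt/wt against -0.20 in fl/fl organoids. Oasl1, an inactive relative that represses translation of Irf7, read 72.6 and 60.7 at day 4 and 56.3 and 76.8 at day 6, with day differences of -0.29 and 0.27. Oasl2 lay below the median, between 6.84 and 9.60 on all arrays.

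The other effectors above the median varied less. Bst2 (tetherin, which holds budding virus at the cell surface) read 40.7 and 53.5 at day 4 and 30.0 and 39.1 at day 6. It was higher in fl/fl organoids by 0.29 and 0.26 and lower at day 6 by 0.30 and 0.34. Rsad2 (viperin, an enzyme that makes a chain-terminating nucleotide) read 33.7 and 35.2 at day 4 and 21.6 and 24.0 at day 6, and was lower at day 6 by 0.40 and 0.36. Mx2, a dynamin-like GTPase, read 20.5 and 18.8 at day 4 and 17.5 and 17.0 at day 6 and did not move beyond 0.12 in any contrast.

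The remaining effectors lay below the median. Ifit1 read 15.2 and 9.47 at day 4 and 11.9 and 14.7 at day 6, and its promoter holds a pair of ISRE cores. Ifit2 read 8.72 and 9.34 at day 4 and 14.3 and 18.4 at day 6, and Ifit3 between 7.66 and 14.7. The Ifit proteins bind viral RNA, and their genes are among the most inducible of the response. Mx1 read 6.43 to 7.73, and the guanylate-binding GTPases Gbp2 and Gbp3 read 4.87 to 6.42 and 4.34 to 5.85. Ifit2 and Ifit1 lay just inside the lower set, 0.21 and 0.20 under the median of all probe sets, and Mx2 and Stat2 just inside the upper set, 0.06 and 0.11 above it.

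The ubiquitin and ADP-ribose group contained the member with the highest day difference. Dtx3l, a ubiquitin ligase that works as a complex with Parp9, read 32.9 and 62.0 at day 4 and 97.3 and 99.7 at day 6. It was 2-fold higher at day 6 in wt/wt organoids (1.21) and short of 2-fold in fl/fl organoids (0.57), and the day 4 arrays differed by 0.67 while the day 6 arrays differed by 0.03. Its other probe set above the median gave 0.52 and 0.14. The call in wt/wt organoids was lost when its probe sets were averaged (0.86), after quantile normalization (0.99) and with a pseudocount of 64 (0.73).

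Dtx3l lies directly between Parp14 and Parp9 in the RefSeq order of protein-coding genes on chromosome 16. Parp9 read 37.9 and 40.9 at day 4 and 61.7 and 56.6 at day 6, higher at day 6 by 0.53 and 0.35. Parp14, a mono-ADP-ribosyl transferase, read 43.2 and 77.3 at day 4 and 61.1 and 58.7 at day 6. It was higher at day 6 in wt/wt organoids by 0.38 and lower in fl/fl organoids by 0.32. On the brightest probe sets of these 3 neighbours the wt/wt array at day 4 was the lowest, as it was for 7 of the 23 members and 5139 of the 11392 genes above the median. On the other probe set of Parp14, which lay below the median, that array was the highest, at 21.8 against 12.6 to 13.1. For Zbp1 and Oas2 it was the highest too.

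Trim25, the ubiquitin ligase that acts with RIG-I, read 674 and 873 at day 4 and 647 and 656 at day 6 on its brightest probe set, with day differences of -0.06 and -0.40. That probe set is of the s_at kind, which can bind related transcripts. On its next probe set Trim25 read 102 and 237 at day 4 and 250 and 278 at day 6, so that wt/wt organoids at day 4 were lowest and the differences were 1.18 and 0.21, while the genotypes differed by 1.11 at day 4. The dimmest of its 3 probe sets above the median read 32.2 and 26.3 at day 4 and 20.5 and 27.1 at day 6, with day differences of -0.40 and 0.03, so the probe sets disagree here too. Usp18, the protease that removes ISG15 and dampens the receptor, lay below the median at 5.78 to 11.1.

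**Figure D2:**
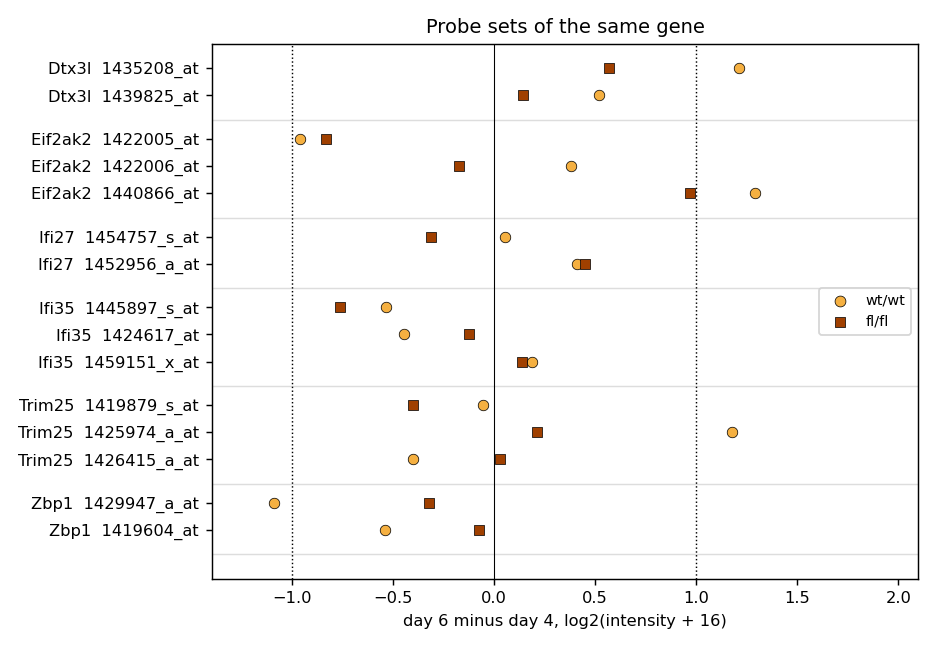
Day 6 minus day 4 on the log2(intensity + 16) scale for the 6 members with several probe sets above the median, 1 row per probe set, brightest first within a gene. Circles are wt/wt and squares fl/fl organoids, and dotted lines mark 2-fold. Eif2ak2 spans from -0.96 to 1.29 and Trim25 from -0.40 to 1.18, whereas both probe sets of Dtx3l lie right of 0 and both of Zbp1 left of it.

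Among the other induced genes, Ifi35, which partners Nmi, read 893 and 879 at day 4 and 610 and 512 at day 6 and was lower at day 6 by 0.54 and 0.76. Its other probe sets gave -0.45 and -0.13, and 0.19 and 0.14. Ifi27, a mitochondrial protein gene, read 140 and 190 at day 4 and 146 and 150 at day 6, and only the fl/fl array at day 4 stood above the rest. Its other probe set read 46.7 and 49.02 at day 4 and 67.3 and 72.7 at day 6, higher at day 6 by 0.41 and 0.45, so the probe sets disagree. Rtp4, a chaperone of receptors, read 33.2 and 45.4 at day 4 and 30.1 and 34.6 at day 6. Xaf1, a pro-apoptotic antagonist of XIAP, read 21.4 and 24.4 at day 4 and 16.8 and 19.5 at day 6. Cxcl10, the chemokine that draws T cells, lay below the median at 8.82 to 13.5.

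The comparison of the days sets day 6 beside day 4. Apc state, if it differs as the sample descriptions say, and the 5' to 3' ratios move with the day. They cannot be told apart from time after treatment here. In wt/wt organoids 1 of the 23 members was 2-fold higher at day 6 (Dtx3l) and 2 were 2-fold lower (Oas1a and Zbp1), where 18.3% of all genes were higher and 2.97% lower. In fl/fl organoids 0 were higher and 1 was lower (Oas1a), where 12.2% were higher and 2.9% lower. The members' median difference was -0.19 in each genotype, against 0.17 and 0.00 for all genes, and it stayed below 0 under each of the 7 settings tried, from -0.43 to -0.04 in wt/wt organoids and from -0.31 to -0.03 in fl/fl organoids. The median of all genes moved by more than 0.1 with the scaling, to -0.13 for wt/wt and -0.12 for fl/fl after quantile normalization, and to 0.30 in wt/wt organoids when each array was scaled to the same median. In both genotypes 13 of 23 members were lower and 5 higher at day 6, and 5 went opposite ways. Of all genes, 36.6% were lower in both and 44.2% higher. By 2-fold, 0 members were higher in both genotypes, against 9.37% of all genes. At 1.5-fold, 1 member was higher and 4 lower in wt/wt organoids (32.5% and 13.1% of all genes), and in fl/fl organoids 0 were higher and 3 lower (24.2% and 11.7%). Oas1a and Eif2ak2 were the 2 that were 1.5-fold lower in both, against 5.87% of all genes, and 0 were higher in both, against 20.4%. For Eif2ak2 this holds on its brightest probe set only.

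A limma fit with genotype and day as additive terms, run over the 11392 genes, treats the genotypes as the replicates of a day, with 1 residual degree of freedom. Day 6 differed from day 4 for 4 of 23 members at a Benjamini-Hochberg adjusted p under 0.05, as it did for 30% of all genes, and for 5 members and 44.4% of all genes at an unadjusted p under 0.05. These were Oas1a (adjusted p = 0.00822, mean difference -1.17), Eif2ak2 on its brightest probe set (0.0173, -0.90), Dtx3l (0.0305, 0.89) and Ifi35 on its brightest probe set, of the s_at kind (0.0483, -0.65), each with the same direction in both genotypes. For Eif2ak2 and Ifi35 another probe set was higher at day 6 in both genotypes. Zbp1 missed the threshold in that limma fit (adjusted p = 0.0708). The share of members called was thus below that of all genes.

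**Figure D3:**
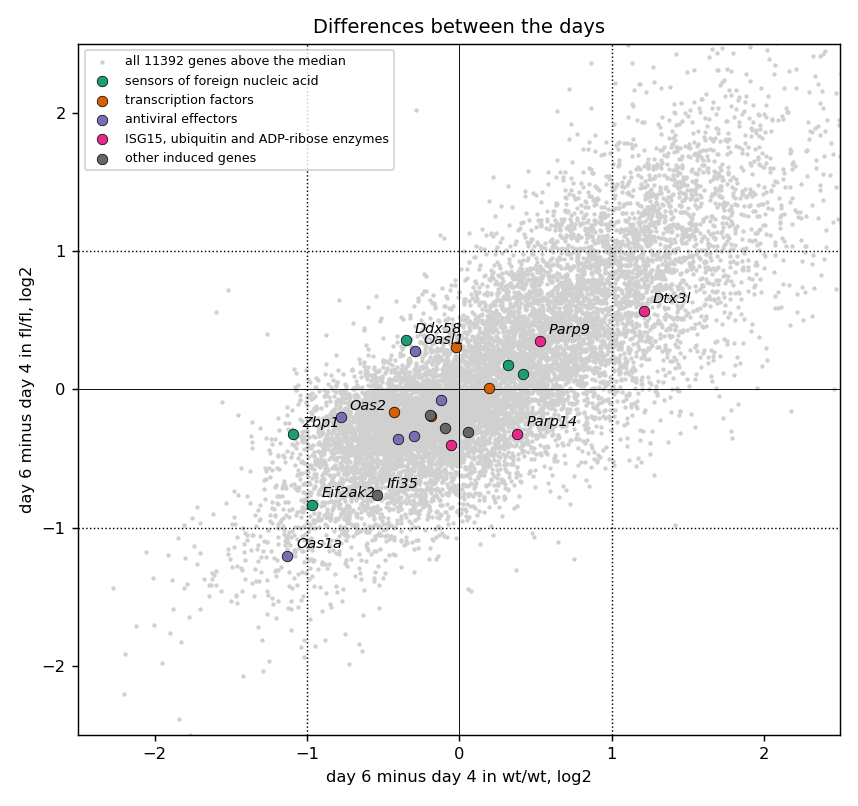
Day 6 minus day 4 in wt/wt organoids (horizontal) against fl/fl organoids (vertical), both on the log2(intensity + 16) scale. Coloured points are the 23 members above the median by role, grey points the 11392 genes above it, of which 114 lie outside the axes, and dotted lines mark 2-fold. Oas1a alone lies in the lower left corner beyond both lines, and no member lies in the upper right corner.

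The comparison of the genotypes addresses what differed where Tacc3 was floxed. At day 4, 0 of 23 members were 2-fold higher in fl/fl organoids and 0 were lower, where 1.38% of all genes were higher and 0.105% lower. At day 6 these were again 0 and 0, where 0.211% were higher and 0.571% lower, and 0.0263% of all genes and 0 members passed 2-fold, on either side, with one sign throughout. At a lower fold of 1.5, 2 members were higher (Dtx3l and Parp14) and 1 lower (Zbp1) on day 4, where 11.6% and 1.94% of all genes were, and 0 were higher and 0 lower on day 6, where 3.21% and 3.7% were. The members' differences ran from -0.70 (Zbp1) to 0.67 (Dtx3l) at day 4 and from -0.25 (Oas1a) to 0.36 (Oasl1) at day 6. Their medians were 0.07 and 0.04, against 0.15 and 0.05 for all genes. The additive limma fit called 0 members by genotype at an adjusted p under 0.05 and 0 at an unadjusted p under 0.05, and 0 (0%) and 609 (5.35%) of all genes. At day 6 all 23 members differed by less than 0.5, as did 88.6% of all genes, and at day 4 it was 18 of 23 and 80.0%.

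**Figure D4:**
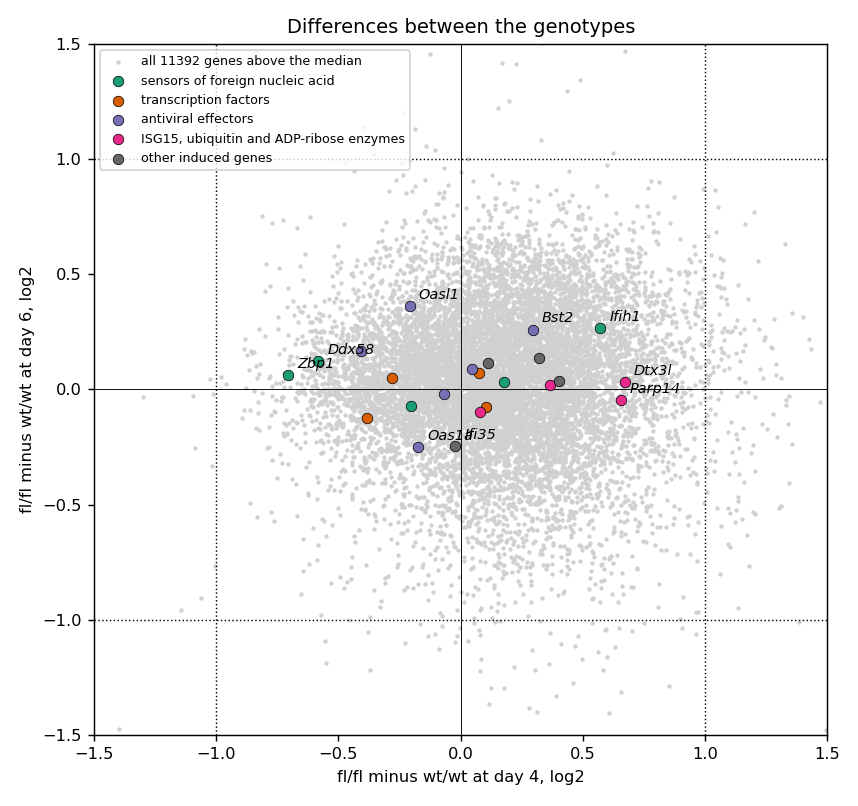
Fl/fl minus wt/wt at day 4 (horizontal) against day 6 (vertical), both on the log2(intensity + 16) scale, with colours as roles, grey points for all 11392 genes above the median, of which 23 lie outside the axes, and dotted lines at 2-fold. The members spread from -0.70 to 0.67 along the horizontal axis and from -0.25 to 0.36 along the vertical one, and all lie within the dotted lines.

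The arrays on which dim genes were brightest were uneven. Of all genes below the median of all probe sets, 61.5% were brightest in wt/wt organoids at day 4, as were 5 of the 10 members below it. Of the 23 members above it, 8 were brightest there, against 22.8% of all genes above it, and 7 were dimmest there, against 5139 of 11392 genes. Another 8 were brightest in fl/fl organoids at day 4, against 2851 of 11392 genes. Among markers of other cells, 10 of 15 immune, 8 of 10 mesenchymal and 4 of 6 endothelial genes were brightest in wt/wt organoids at day 4. The summed intensity of the immune list was 2155 and 3099 at day 4 and 1743 and 1375 at day 6. Of these sums Lyz2 alone, a lysozyme gene, gave 1887 and 2857 at day 4 and 1533 and 1136 at day 6. The mesenchymal sum was 203 and 166 at day 4 and 111 and 121 at day 6. The endothelial sum was 75.5 and 67.2 against 44.8 and 49.5, with 0 of 6 genes above the median. The part of these measures in the day 4 values of Zbp1, Oas2 and Stat2 was not tested.

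Upstream of these genes, all but 1 of the measured ligands lay below the median and the receptors above it. Of 21 interferon genes listed, 10 had a probe set of 1 gene symbol. The listed type III interferon genes, Ifnl2 and Ifnl3, were not among these. Only Ifnz lay above the median, at 32.1 and 25.4 at day 4 and 19.7 and 21.0 at day 6. Ifnb1, the type I interferon most cells make first, read between 10.02 and 15.9, and Ifng, the type II interferon, between 4.55 and 8.49. All 6 receptor chains lay above the median. Ifnlr1, the chain particular to type III interferon, read 54.7 and 47.6 at day 4 and 61.3 and 57.6 at day 6, and its partner Il10rb 89.2 and 104 at day 4 and 178 and 186 at day 6, higher at day 6 by 0.88 and 0.75. Ifngr1 was higher at day 6 by 0.75 and 0.65, while Ifngr2, the other chain of the type II receptor, was at -0.66 and -1.03, the latter past 2-fold. Ifnar2, of the type I receptor, differed by 0.58 and 0.12.

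Of the 12 genes of the JAK-STAT list, 11 were measured and 10 lay above the median. In wt/wt organoids 2 were 2-fold higher at day 6, the phosphatase genes Ptpn11 (1.31) and Ptpn2 (1.19), with 0.84 and 0.80 in fl/fl organoids, where 18.3% of all genes were 2-fold higher in wt/wt. None was 2-fold lower in either genotype. Jak1, the kinase shared by all interferon receptors, differed by 0.72 and 0.89, and the phosphatase gene Ptpn1 by -0.86 and -0.81. The only gene of the list that differed 2-fold between genotypes was Socs3, a feedback inhibitor, named after its values were seen. It differed by -1.01 at day 6, from 118 in wt/wt to 50.5 in fl/fl organoids, where 0.571% of all genes were 2-fold lower. This lies at the threshold. Socs3 has 3 probe sets, and its brightest, used here, is of the x_at kind, which can bind related transcripts.

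Of 18 adaptors and kinases that lead from sensing to interferon, 15 were measured and 13 lay above the median. In wt/wt organoids 2 were 2-fold higher at day 6, Tbk1, the kinase that phosphorylates Irf3 (1.85), and Azi2, its adaptor (1.94), beside 18.3% of all genes. In fl/fl organoids these differed by 0.87 and 0.75, and the 1 gene past 2-fold was Rnf125, a ubiquitin ligase that acts on RIG-I (1.44), beside 12.2% of all genes. Tank, another adaptor of Tbk1, differed by 0.81 and 0.55. None was 2-fold lower.

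In a further list of 54 interferon-induced genes, 46 were measured and 31 lay above the median. At day 6, 2-fold higher levels were found for 7 of them in wt/wt organoids and for 4 in fl/fl organoids, near the 18.3% and 12.2% of all genes, and 0 were 2-fold lower in either. The 4 largest mean differences belonged to B2m, the light chain of MHC class I (157 and 163 at day 4 against 1195 and 1561 at day 6, differences of 2.81 and 3.14), the aminopeptidase Lap3 (1.28 and 2.22), Epsti1 (1.47 and 1.54) and Lgals3bp, a secreted glycoprotein (1.35 and 1.25). The other 3 in wt/wt organoids, Tor1aip1 (1.20), Parp12 (1.04) and Nmi (1.04), gave 0.57, 0.29 and 0.93 in fl/fl organoids. The list's medians were 0.28 and 0.01, close to 0.17 and 0.00 for all genes and above the -0.19 of the 23 members. No gene of this list differed 2-fold between the genotypes at either day.

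**Figure D5:**
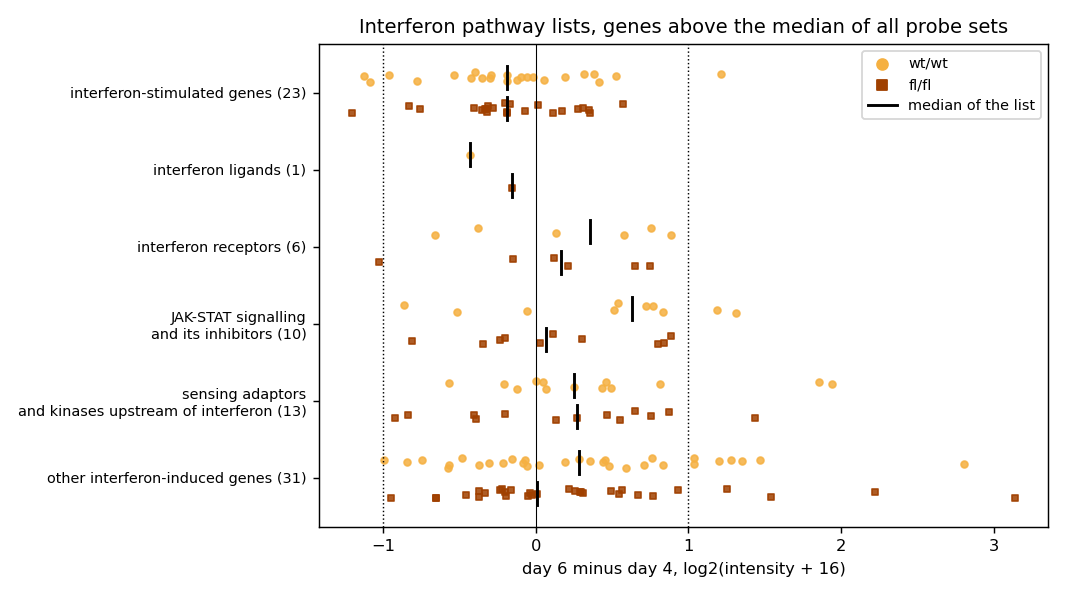
Day 6 minus day 4 on the log2(intensity + 16) scale for the 23 members above the median and for the pathway lists, with the number of genes above the median in parentheses. Circles are wt/wt and squares fl/fl organoids, black bars are list medians and dotted lines mark 2-fold. The members' medians are -0.19 in each genotype, and B2m is the point farthest to the right, at 2.81 and 3.14.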

How the data were processed

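The deposited values are linear intensities, 1 for each of 45101 probe sets on each of 4 arrays, as the values themselves show. Per the labels' protocols, cRNA was made from 100 ng of total RNA by 3' in vitro transcription. Which software summarised the probe sets, and how arrays were normalized, is not given in the sources used here. No further normalization was applied, and values were used as log2(intensity + 16), which understates differences of dim genes. The platform table gives 1 symbol for 34958 probe sets, several for 932 and does not list 9211. Symbols were updated by Entrez ID with RefSeq (GRCm38.p6), which matched 34754. Groups came from the sample titles. A difference was called at 2-fold, on size alone. Pathway and marker lists are described by counts and medians beside all genes above the median of all probe sets. All 35 members were accounted for, those above the median or 2-fold in a contrast with each array's intensity, and up to 4 genes per pathway list by mean day difference. Promoter stretches, and a search for the GAS core that was added after the data were seen, used RefSeq windows. The members and lists were chosen with earlier results of these data known. Alternatives were pseudocounts of 64 and 1, quantile normalization, scaling to a common median, the mean of probe sets, no x_at and s_at probe sets, no filter, 1.5-fold and an additive limma fit. Python 3.11.15, pandas 2.3.3, R 4.3.3 and limma 3.58.1 were used, and the steps were tested on simulated data. The number of arrays limits the precision.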

Additional observations from a re-analysis of the deposited data

Results flagged for a closer look

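For 9 of the 23 members above the median, the day difference or the genotype difference had opposite signs in the groups compared. Each value below is the day difference in fl/fl minus that in wt/wt organoids on the log2(intensity + 16) scale, and with 1 array per group none of these differences was tested. The day difference changed sign between the genotypes for Ddx58 (0.71), Oasl1 (0.57), Irf9 (0.33), Ifi27 (-0.37) and Parp14 (-0.70). For Ifi27 this rests on its brightest probe set, since the other one above the median gave 0.41 and 0.45. The dimmer probe sets of Ddx58 and Parp14, all below the median, did not change sign either. Those of Ddx58 gave 0.29 and 0.21, and -0.34 and -0.17, and that of Parp14 gave -0.40 and -0.03. The genotype difference changed sign between the days for Zbp1 (0.76), Oas2 (0.58), Irf1 (-0.18) and Parp9 (-0.18), and also for Ddx58, Irf9, Oasl1 and Parp14. The median of this measure was -0.03 over the 23 members and -0.09 over all genes above the median. Opposite signs of the day difference were found for 5 of 23 members (21.7%) and 18.9% of all genes, and opposite signs of the genotype difference for 8 of 23 (34.8%) and 47.0% of all genes.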

How the results depend on the processing

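With 1 array per group, no array could be left out. Nor were there replicates to pair across the groups, and the days could be paired only by genotype, as in the additive limma fit. The additive limma fit adjusted for genotype and estimated 1 day difference common to both genotypes. Between 20 and 23 members lay above the median in the settings that bore on it, and the day differences of Oas1a, Zbp1 and Dtx3l kept their sign in each setting run. Eif2ak2, called by the limma fit and after quantile normalization, had a wt/wt day difference of 0.24 with the mean of probe sets against -0.96 on its brightest one. Trim25 had 1.18 without x_at and s_at probe sets against -0.06. With a pseudocount of 64, 0 members were 2-fold higher and 0 lower in wt/wt, 0 lower in fl/fl and 0 lower in both genotypes at day 6, and the median day differences were -0.0806 and -0.0854. With a pseudocount of 1, 1 member (Zbp1) was lower in fl/fl on day 4 and 4 were lower at day 6 in wt/wt organoids, and the median in fl/fl organoids was -0.31. After quantile normalization 0 were higher in wt/wt, 3 lower in fl/fl and 2 lower in both genotypes, and the median in wt/wt organoids was -0.43. Scaling each array to the same median took that median to -0.0744 and left 0 members lower in wt/wt organoids and 0 lower in both genotypes. With the mean of probe sets 0 were higher and 1 lower in wt/wt organoids, with medians of -0.0411 and -0.0334. Without x_at and s_at probe sets 1 (Trim25) was higher in fl/fl on day 4 and 2 (Trim25 and Dtx3l) were higher on day 6 in wt/wt organoids. At 1.5-fold, 2 were higher and 1 lower in fl/fl on day 4, and 4 lower in wt/wt, 3 lower in fl/fl and 2 lower in both genotypes at day 6. The additive limma fit called 4 members by day, against 1 by size in both genotypes. A level under an intensity of 16 cannot show a 2-fold fall on this scale. Other causes were not tested.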
